A study of Mus musculus with 117 samples.

Results

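The regions described here are stretches of the mouse genome where hepatocytes of inbred strains switch between 2 chromatin states, numbered 9 and 14 by the authors. They were selected on the deposited state calls themselves. A 200-bp bin on chromosomes 1 to 19 was taken where all 9 strains had state 9 or state 14 and no other state, with at least 3 strains in each. Adjacent bins with the same strains in state 9 were joined into a region. This gave 34246 bins in 19177 regions, called 9/14 switches below, which is 0.278% of the 12313718 autosomal bins. The autosomes as a whole fell into 2696484 stretches of constant state combination.

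Hepatocytes, which make up most of the liver's mass, came from females aged 12 weeks. The laboratory strains were NOD/ShiLtJ, A/J, NZO/HlLtJ, DBA/2J, 129S1/SvImJ and C57BL/6J, and the wild-derived strains CAST/EiJ, WSB/EiJ and PWK/PhJ, all inbred. Per the labels, chromatin immunoprecipitation sequencing covered 4 histone modifications, H3K4me1, H3K4me3, H3K27ac and H3K27me3, in 3 mice per strain, with 1 input library per strain and 117 libraries in all. In the labels the groups differ by strain only, and no genotype change, treatment or batch is named. Each strain has 1 deposited segmentation into 14 states that combines its libraries, so no error between mice of a strain can be given and the depth behind a call is unknown. SDs below are over the 9 strains.

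A chromatin state is a recurring combination of histone modifications along the genome. Active gene starts typically carry trimethylated H3 lysine 4, flanked by monomethylated lysine 4, and acetylated lysine 27 marks active starts and enhancers, while trimethylated lysine 27 is placed by Polycomb complexes at silent developmental genes. The wild-derived CAST/EiJ and PWK/PhJ differ from the classical laboratory strains at many more DNA positions than those differ from one another. No source used here gives the mark content of a state, so the state numbers serve only as names.

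The label of the cells was set against the states at the starts of marker genes. No source used here calls states 1 to 3 active, so the contrast between marker lists is a description. Starts of hepatocyte markers such as Alb, Apoa1 and Hnf4a lay in states 1 to 3 over 96.7% ± 5.29 of their bins within 1 kb (SD, n = 9 strains). The same share was 8.92% ± 5.49 for Kupffer cell markers, 22.5% ± 10.2 for endothelial markers, 8.84% ± 2.33 for stellate cell markers and 14.7% ± 6.34 for bile duct markers. Of the 40 marker genes with a start, lymphocyte markers included, 1 had a switch within 1 kb of it, the lymphocyte marker Ptprc, against 3.32% of all genes with a start. The part of other cell types in the switches was not tested.

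The sequences below show what the starts involved in this class of switch look like. Each line gives the 250 bases before a start, 5′ to 3′, with CpG dinucleotides in capitals, from RefSeq on GRCm38.p6. The switch ran across the first 5 starts, those of the genes with most switch bins within 1 kb of a start. Mdm4 and Proca1 each had a further annotated start that is not shown. The last 2, Rsl24d1 and Eif4a1, were in state 3 in all 9 strains with a long switch beside them, and were chosen after their values were seen. Mdm4 encodes an inhibitor of p53 (chr1:133030588-133030837, minus strand).
Mdm4: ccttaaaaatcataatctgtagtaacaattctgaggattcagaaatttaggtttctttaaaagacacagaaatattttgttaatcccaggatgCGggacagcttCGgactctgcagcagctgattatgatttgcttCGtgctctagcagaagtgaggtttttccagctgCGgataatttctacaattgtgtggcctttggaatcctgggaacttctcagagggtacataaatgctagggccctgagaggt
Tssk4 encodes a testis-specific serine kinase (chr14:55649934-55650183, plus strand).
Tssk4: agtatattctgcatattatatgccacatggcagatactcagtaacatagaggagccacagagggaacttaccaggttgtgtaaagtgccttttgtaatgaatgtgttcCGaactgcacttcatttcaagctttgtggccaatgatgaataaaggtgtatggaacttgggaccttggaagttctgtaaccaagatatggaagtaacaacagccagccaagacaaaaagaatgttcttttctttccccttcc
Lbhd1 lies on chromosome 19 (chr19:8883628-8883877, plus strand).
Lbhd1: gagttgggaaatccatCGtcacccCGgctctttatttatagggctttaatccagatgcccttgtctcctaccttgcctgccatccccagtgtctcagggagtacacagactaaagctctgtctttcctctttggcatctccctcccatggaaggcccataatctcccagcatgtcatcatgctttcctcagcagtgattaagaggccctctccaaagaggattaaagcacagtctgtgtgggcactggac
Proca1 lies on chromosome 11 (chr11:78193142-78193391, plus strand).
Proca1: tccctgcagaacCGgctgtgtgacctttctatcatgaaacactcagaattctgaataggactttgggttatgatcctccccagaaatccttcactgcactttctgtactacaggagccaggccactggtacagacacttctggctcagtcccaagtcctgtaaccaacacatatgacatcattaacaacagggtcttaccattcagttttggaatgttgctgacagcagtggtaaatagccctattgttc
Bricd5 lies on chromosome 17 (chr17:24473634-24473883, plus strand).
Bricd5: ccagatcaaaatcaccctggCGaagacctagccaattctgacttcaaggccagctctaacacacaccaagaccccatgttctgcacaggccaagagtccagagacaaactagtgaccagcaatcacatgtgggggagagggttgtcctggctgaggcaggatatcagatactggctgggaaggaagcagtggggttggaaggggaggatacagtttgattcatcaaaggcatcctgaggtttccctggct
Rsl24d1 encodes a ribosome biogenesis factor (chr9:73113219-73113468, plus strand).
Rsl24d1: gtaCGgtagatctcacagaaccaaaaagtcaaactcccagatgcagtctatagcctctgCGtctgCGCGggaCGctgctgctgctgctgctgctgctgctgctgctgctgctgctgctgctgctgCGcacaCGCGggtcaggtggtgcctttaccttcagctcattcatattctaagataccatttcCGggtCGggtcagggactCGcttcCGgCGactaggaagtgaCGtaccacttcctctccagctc
Eif4a1 encodes an RNA helicase of translation initiation (chr11:69672424-69672673, minus strand).
Eif4a1: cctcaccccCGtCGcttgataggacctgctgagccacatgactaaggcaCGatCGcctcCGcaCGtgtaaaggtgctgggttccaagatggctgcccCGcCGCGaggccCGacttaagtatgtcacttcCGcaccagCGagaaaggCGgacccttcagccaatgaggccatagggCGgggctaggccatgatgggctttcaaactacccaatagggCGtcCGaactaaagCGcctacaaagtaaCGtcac
The 250 bases held 4 CpG at Mdm4, 1 at Tssk4, 2 at Lbhd1, 1 at Proca1 and 1 at Bricd5, against 14 at Rsl24d1 and 18 at Eif4a1. The starts that switched were the CpG-poor ones in this small set.

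Over all annotated starts, CpG dinucleotides were counted in windows of 300 bases, 250 before and 50 after the start. Starts beside a switch did not form a set there, so the contrast between the printed starts was not tested. The 59 windows that overlapped a switch had a median of 5 CpG and a GC content of 48.7%. The 76 windows that overlapped a bin in state 9 in all strains had a median of 20 CpG, and all 20085 windows of protein-coding genes had a median of 14. Of the windows with a switch, 64.4% held 5 CpG or fewer, against 31.4% of all windows. The GC-box letters GGGCGG, searched on both strands, occurred in 16.9% of windows with a switch and in 47.0% of all windows. TATAAA occurred in 11.9% against 12.7%, and CCAAT in 40.7% against 38.1%. These shares are descriptions of windows that share genes, and no test was made on them.

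The switches were not spread evenly over the strains. NOD/ShiLtJ had state 9 in 95.1% of the switch bins, A/J in 79.7%, CAST/EiJ in 69.9%, NZO/HlLtJ in 63.3% and DBA/2J in 53.8%. The share was 39.0% in 129S1/SvImJ, 16.5% in WSB/EiJ, 15.9% in C57BL/6J and 1.85% in PWK/PhJ. NOD/ShiLtJ was thus at the high end, PWK/PhJ at the low end, and WSB/EiJ and C57BL/6J stood close together. These shares describe the values that chose the bins.

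Outside the switches the strains stood in nearly the same order. The rest of the autosomal bins in state 9 made up 1.33% of all bins in NOD/ShiLtJ, 0.749% in A/J, 0.748% in NZO/HlLtJ, 0.726% in CAST/EiJ and 0.657% in DBA/2J. They made up 0.585% in 129S1/SvImJ, 0.552% in WSB/EiJ, 0.504% in C57BL/6J and 0.266% in PWK/PhJ. Only CAST/EiJ and NZO/HlLtJ traded places. The amount of state 9 a strain had outside the switch bins thus moved with its share of the switches. These other bins include the rest of the state 9 segments that hold a switch, so the measures are not independent. The part of depth or of the number of marked cells in both was not tested.

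**Figure D1:**
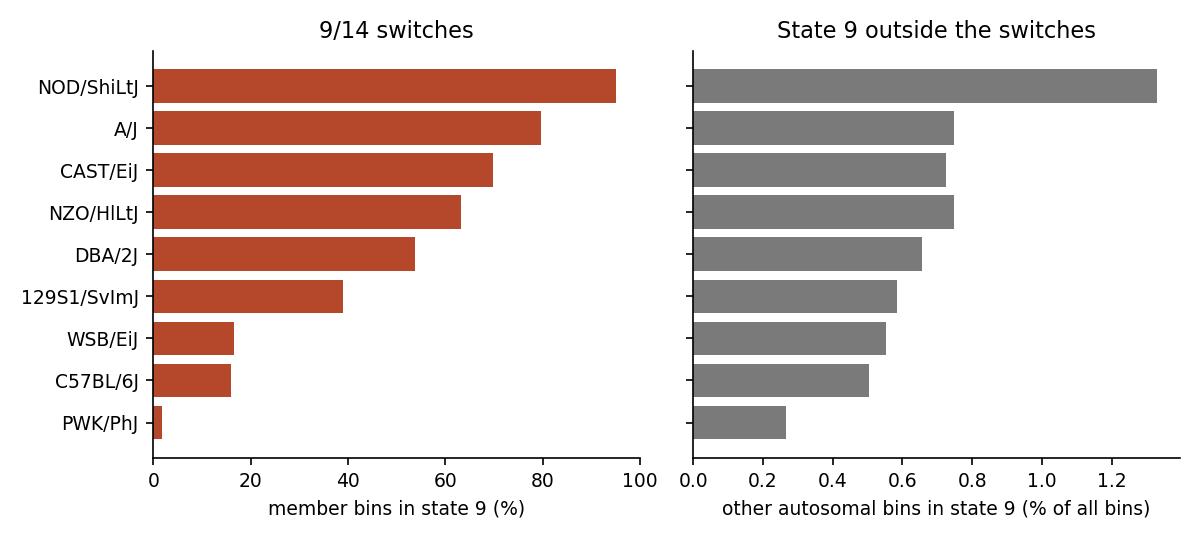
Share of switch bins in state 9 in each strain (left, percent of 34246 bins) and other autosomal bins in state 9 (right, percent of all autosomal bins), 1 segmentation per strain. The strains run from NOD/ShiLtJ, at 95.1% and 1.33%, to PWK/PhJ, at 1.85% and 0.266%.

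A bin of this class can have 420 strain patterns, of which 356 were seen and 61 were seen in a single region. The most frequent had state 9 in NOD/ShiLtJ, A/J, CAST/EiJ, NZO/HlLtJ, DBA/2J and 129S1/SvImJ, with 1611 regions. The next had state 9 in NOD/ShiLtJ, A/J and CAST/EiJ alone, with 1447 regions. Adding NZO/HlLtJ to these gave 976 regions, and adding DBA/2J as well gave 1059. These 4 patterns are nested along the order of the strains and held 5093 regions, or 26.6%. The 10 most frequent patterns held 8723 regions, or 45.5%.

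The patterns along the split between wild-derived and laboratory strains were counted. The pattern with the 3 wild-derived strains in state 9 and the 6 laboratory strains in state 14 occurred in 4 regions. The opposite pattern occurred in 203 regions, or 1.06%, the 23rd most frequent, against a mean of 45.7 regions per possible pattern. That mean ignores the strain shares of state 9, from 1.85% in PWK/PhJ to 95.1% in NOD/ShiLtJ, so it is no baseline for the split. The wild-derived CAST/EiJ and PWK/PhJ lay far apart in the order. By pairs, C57BL/6J and PWK/PhJ had the same state in 83.3% of the switch bins, the highest of 36 pairs, and NOD/ShiLtJ and PWK/PhJ in 4.92%, the lowest. A/J and NOD/ShiLtJ shared the state in 79.7%. Pair values depend strongly on the strain shares of state 9, such as 15.9% in C57BL/6J and 1.85% in PWK/PhJ. They were not corrected for these shares and show no likeness beyond them.

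**Figure D2:**
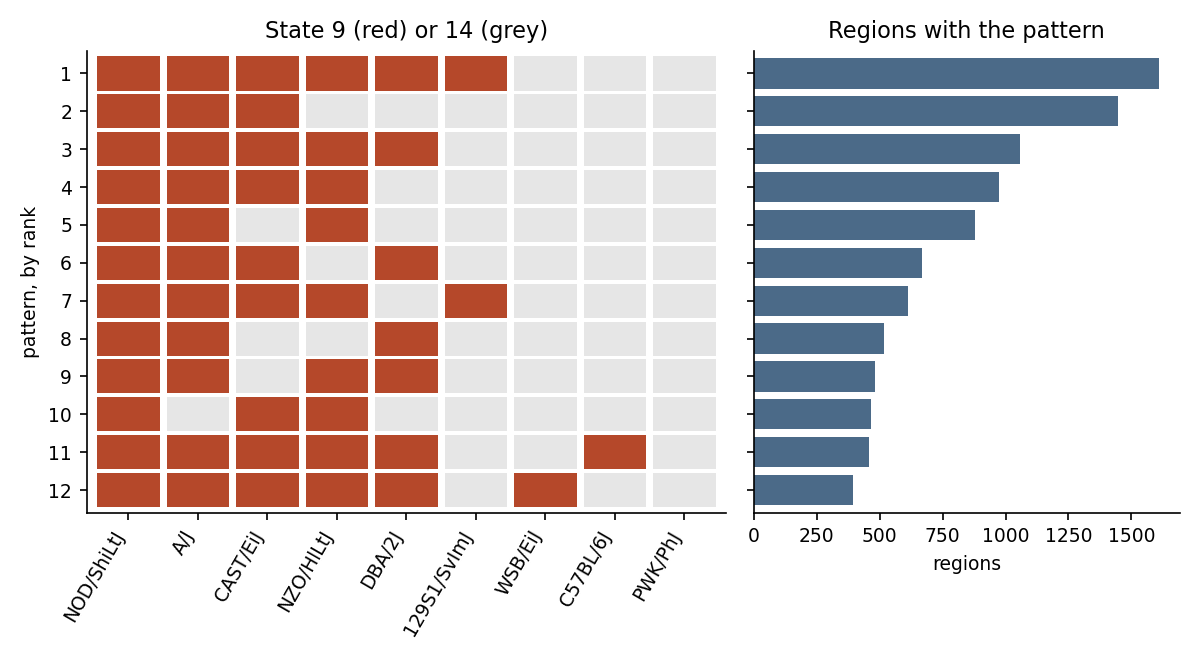
The 12 most frequent strain patterns: left, strains in state 9 (red) or 14 (grey), ordered by share of switch bins in state 9; right, number of regions. NOD/ShiLtJ is in state 9 and PWK/PhJ in state 14 in each of the 12, and the first pattern holds 1611 regions.

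NOD/ShiLtJ was in state 14 in 1106 regions, or 5.77%, and PWK/PhJ was in state 9 in 453, or 2.36%. Both held in 211 regions. Where NOD/ShiLtJ was in state 14, NZO/HlLtJ was most often in state 9, in 801 regions or 72.4%, followed by DBA/2J in 699. The most frequent pattern there, A/J, DBA/2J and NZO/HlLtJ, held 65 regions.

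Single regions were short. The median length was 200 bp, the mean 357 bp and the longest 3000 bp, and 328 regions, or 1.71%, were longer than 1 kb. Single bins made up 11064 regions, or 57.7%. Consecutive regions touched in 49.5% of cases, which means that the pattern changed by some strains from a bin to the next, and otherwise stood a median of 47400 bp apart. The regions summed to 6849.2 kb.

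A strain in state 14 at a switch often had state 9 nearby. An island is here a run of bins with state 9 in at least 1 strain, and 9122 of 33799 islands held a switch. In 35.4% of these 9122 islands some bin had state 9 in all strains, and in 45.5% at least 1 strain lacked state 9 throughout. Counting each strain and region, a strain in state 14 had state 9 elsewhere in the same island in 72199 of 88238 cases, or 81.8%, but in a bin next to the region in 27251, or 30.9%. The share with state 9 elsewhere in the island was 53.2% in NOD/ShiLtJ, 66.8% in PWK/PhJ and between 79.7% in CAST/EiJ and 91.4% in NZO/HlLtJ in the other strains.

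The segments of state 9 that held a switch averaged 2855 bp in NOD/ShiLtJ, 2009 bp in A/J, 1886 bp in CAST/EiJ and 1750 bp in NZO/HlLtJ. They averaged 1651 bp in DBA/2J, 1518 bp in WSB/EiJ, 1470 bp in 129S1/SvImJ, 1414 bp in C57BL/6J and 699 bp in PWK/PhJ. The longest segments were thus those of the strain with most switches in state 9, and the shortest those of the strain with fewest. These lengths include the bins that chose the regions, so the order follows in part from the selection. Segments without a switch averaged 1016 bp in NOD/ShiLtJ and 596 bp in PWK/PhJ, again the longest and shortest. Among them C57BL/6J, at 900 bp, exceeded A/J, at 811 bp, so the order between was not the same. Bins next to a region in state 9 were in state 9 in 78.9% and in state 14 in 17.1% of cases, while bins next to a region in state 14 were in state 14 in 81.6% and in state 9 in 15.5%. State 8 was the most frequent other neighbour of state 9, at 2.51%.

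Touching regions had 85.0% of strains in the same state, and regions under 5 kb apart 72.1%. The value was 69.8% at 5 to 20 kb, 67.7% at 20 to 100 kb and 66.8% at 2 to 10 Mb. Any 2 regions gave 66.9%, so the likeness of strain patterns fell off within the nearest kilobases. These are descriptions over pairs that share regions.

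Within the genes, the switches lay beside starts and seldom on them. Starts with a strand came from RefSeq for 16457 of 20665 autosomal protein-coding genes, none on chromosome 18. Of the switch bins, 69.6% lay within 5 kb of such a start, and 67.4% lay between 1 and 5 kb from it. The 5-kb share was 79.5% for bins in state 9 in all strains, 6.61% for all autosomal bins, 5.54% for switches between states 4 and 14, 3.25% for those between 6 and 14 and 4.97% for those between 13 and 14. The switches thus lay nearer to starts than the other classes of switch, and farther from them than bins in state 9 in all strains, with a median distance of 3700 bp against 1979 bp.

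By side, 24.4% of switch bins lay 2 to 5 kb before the nearest start and 33.1% lay 2 to 5 kb after it. The first kilobase held 1.49% before and 0.765% after. In the gap between, 7.87% lay 1 to 2 kb before the start and 2.07% lay 1 to 2 kb after it. The 2 shoulders were therefore not mirror images, with the downstream one farther from the start.

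**Figure D3:**
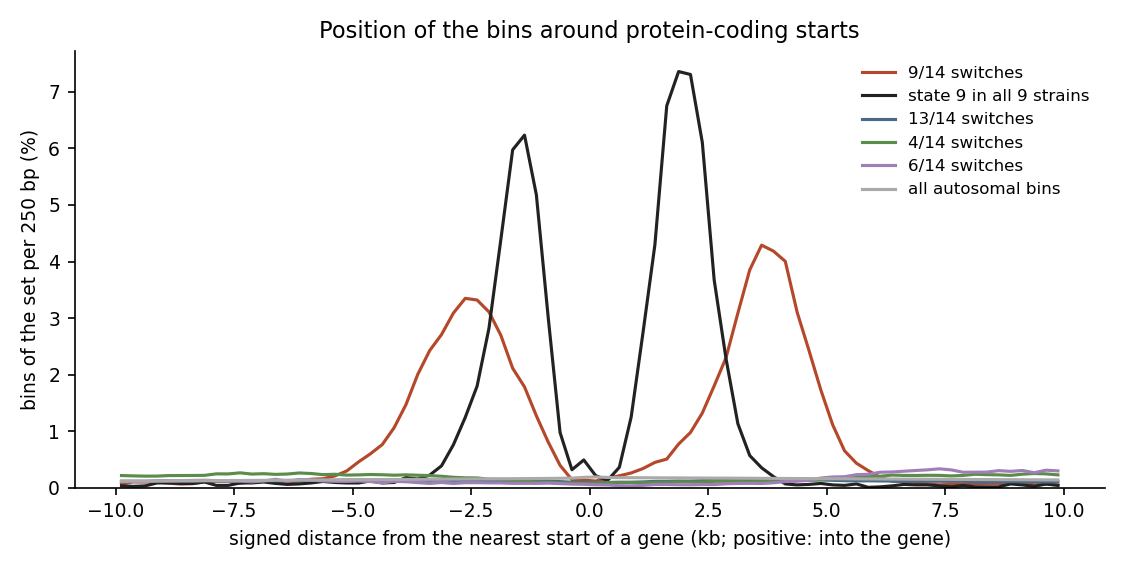
Percent of the bins of each set (vertical axis, per 250 bp) by signed distance from the nearest protein-coding start (horizontal axis, kb, positive into the gene). The switches peak on both sides of the start and outside the bins in state 9 in all 9 strains, while the 13/14, 4/14 and 6/14 switches and all autosomal bins stay near 0.

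The share between 1 and 5 kb from a start, a window taken from this profile after the data were seen, is given per strain as a description with no test. For the switch bins where a strain had state 9 it was 63.3% ± 12.0 (SD, n = 9), from 32.1% in PWK/PhJ to 70.4% in CAST/EiJ. It was 4.89% ± 0.371 for 4/14 switches where the strain had state 4, 2.85% ± 0.144 for 6/14 switches and 4.28% ± 0.433 for 13/14 switches, and no strain's values overlapped these. In the rest of a strain's state 9 it was 62.7% ± 3.91, a difference of 0.627 ± 11.5 points with 5 of 9 strains higher. The sign of this difference turned without A/J, CAST/EiJ, DBA/2J or NOD/ShiLtJ, and against bins in state 9 in all strains it was -6.80.

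The distance from the start followed how many strains had state 9. Among bins within 10 kb of a start, the median distance was 3620.5 bp with 3 strains in state 9, 3393 bp with 4, 3126 bp with 5 and 2915.5 bp with 6. Just outside the selection the medians were 3925 bp with 2 strains and 2728 bp with 7. The rule thus took the middle of a gradient that ran from 4694 bp with 1 strain to 1811 bp with all 9. By number, 15874 bins with only these states had 2 strains in state 9 and 8716 had 7, against 10809 with 3 and 7671 with 6. A further 10797 bins had at least 3 strains in each state but also another state, most often state 4, in 44.8%.

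The start beside a switch was mostly in the same class of state in all strains. For the 13812 regions 1 to 10 kb from a start, the nearest start was in states 1 to 3 in 88.5% ± 4.74 of regions where the strain had state 9. It was in these states in 85.3% ± 10.01 where the strain had state 14 (SD, n = 9 strains), against 51.7% ± 1.17 of all starts. State 3 alone made up 75.8% and 75.5%. In 86.4% of these regions the start was in states 1 to 3 in every strain or in none. This share was not computed over all starts, so it cannot be called particular to starts beside a switch. Regions near the same start also count it more than once. NOD/ShiLtJ and PWK/PhJ stood apart, with 89.1% at state 9 against 61.2% at state 14 in NOD/ShiLtJ, and 77.7% against 90.2% in PWK/PhJ.

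The same picture came from the starts themselves. At the 6541 starts in state 3 in all 9 strains, the mean length in state 9 within 8 kb was 4220 bp in NOD/ShiLtJ, 2673 bp in A/J and 2365 bp in CAST/EiJ. It was 2333 bp in NZO/HlLtJ, 2025 bp in DBA/2J, 1862 bp in 129S1/SvImJ, 1630 bp in WSB/EiJ, 1527 bp in C57BL/6J and 671 bp in PWK/PhJ. This is the strain order of the switches, and state 9 in a strain reached farther out from the same starts. At 3 kb before the start, 51.1% of these starts had state 9 in NOD/ShiLtJ and 4.16% in PWK/PhJ. Since these starts also hold switches, the lengths are a description and no test was made.

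**Figure D4:**
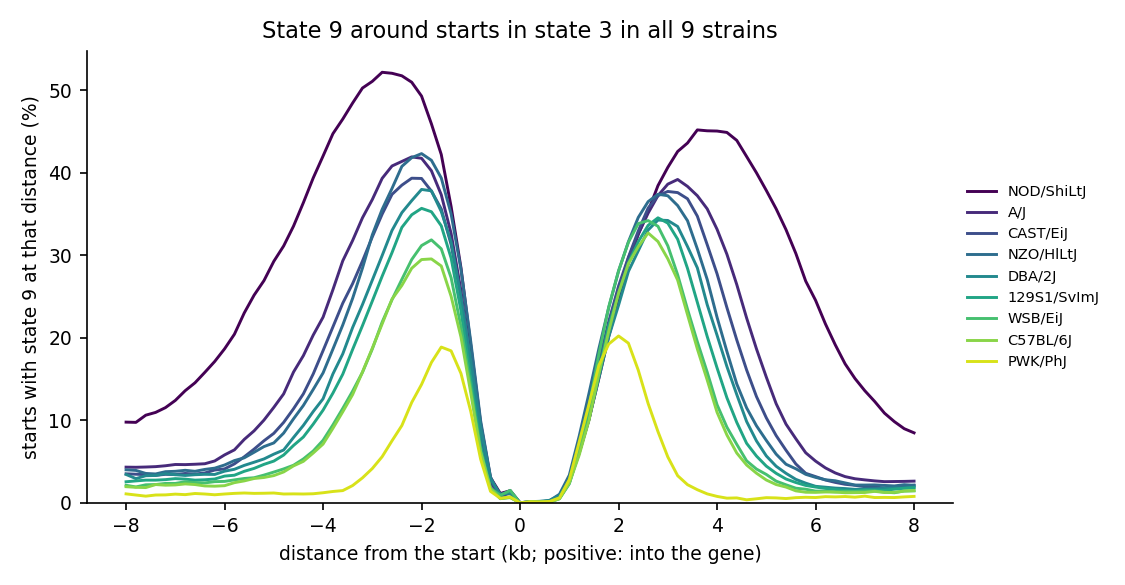
Percent of the 6541 starts in state 3 in all 9 strains that had state 9 (vertical axis) at each distance from the start (horizontal axis, kb, positive into the gene), 1 line per strain. NOD/ShiLtJ is widest and highest, PWK/PhJ narrowest and lowest, and all lines fall to near 0 at the start.

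Inside protein-coding genes, 52.6% of the switch bins lay in the first of 4 equal parts of the gene, followed by 23.2%, 12.7% and 11.5%. For bins in state 9 in all strains the first part held 68.9%. In all, 57.4% of switch bins lay in a protein-coding gene and 7.02% lay over 5 kb from any, against 40.1% and 54.3% of all autosomal bins. Where NOD/ShiLtJ was in state 14, 33.4% lay over 5 kb from a gene and 9.77% within 1 kb of a start. Where PWK/PhJ was in state 9, these shares were 24.96% and 18.01%. The switches that went against the common order thus had other places than the rest.

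The planned tests compared position with other classes. Within 1 kb of a start lay 4.91% ± 4.99 of switch bins where a strain had state 9 and 8.25% ± 2.41 of its other state 9 bins, a difference of -3.34 ± 3.09 points with 1 of 9 strains higher, PWK/PhJ (exact two-sided sign-flip permutation test, adjusted p = 0.03125). Without any 1 strain other than PWK/PhJ, the adjusted p of this test was 0.0520833 or 0.0625. With a window of 2 kb the difference was -15.7 points with 0 of 9 strains higher (exact sign-flip permutation test, adjusted p = 0.00625), and with 500 bp it was -0.907 (adjusted p = 0.125). The strains share the switch bins and much ancestry, so they are not independent, and the p-values measure only the spread between segmentations. In a gene lay 56.6% ± 3.34 against 63.1% ± 1.98, a difference of -6.55 ± 3.78 points with 0 of 9 strains higher (exact sign-flip permutation test, adjusted p = 0.007812).

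Near starts, the switches exceeded the other classes in 9 of 9 strains. The difference was 3.99 ± 5.02 points against 13/14 switches, 4.11 ± 5.02 against 4/14 and 4.41 ± 5.01 against 6/14 (exact sign-flip permutation test, adjusted p = 0.007812 for each). PWK/PhJ weighed in the mean, at 17.2 to 17.6 points, and without it the 3 differences were 2.34, 2.46 and 2.77. With a window of 2 kb they were 16.0, 16.1 and 16.8 points. In genes, the difference from 6/14 switches was -8.03 ± 4.85 points with 1 of 9 strains higher (exact sign-flip permutation test, adjusted p = 0.0125). From 4/14 switches it was 0.487 ± 8.75 points with 5 of 9 higher (exact sign-flip permutation test, adjusted p = 0.8789), and its sign turned without A/J, C57BL/6J, NOD/ShiLtJ or WSB/EiJ.

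Flanks 1 to 5 kb from a region were outside state 14 in 50.4% ± 9.10 of bins where the strain had state 9 and in 47.3% ± 6.76 where it had state 14. The difference was 3.09 ± 12.6 points with 4 of 9 strains higher (exact sign-flip permutation test, adjusted p = 0.6786). It was 32.0 points in NOD/ShiLtJ and -15.1 in PWK/PhJ, and without NOD/ShiLtJ the mean was -0.521. In the kilobase next to the region the difference was 31.6 ± 10.98 points in 9 of 9 strains. That kilobase holds touching regions and the rest of the same state 9 segment. A positive value there follows from how regions were cut, so it is a description and not a test. The flanks of 1 to 5 kb can also hold part of that segment, so the chromatin beyond the segment was not measured apart.

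A switch lay within 1 kb of a start in 547 of 16457 genes, 3.32%, and inside 4728 of 20665 genes, 22.9%. The 10 genes with most switch bins near a start had 6 to 11 of them. Mdm4 had 2 starts with 22 bins within 1 kb of them, of which 7 to 11 per strain were in states other than 9 and 14. Its 11 switch bins spanned chr1:133029401-133031600. State 9 covered 11 of them in A/J, CAST/EiJ, NOD/ShiLtJ and NZO/HlLtJ, 10 in 129S1/SvImJ, 1 in C57BL/6J and 0 in DBA/2J, PWK/PhJ and WSB/EiJ. The strains fell into separate groups with no value between 1 and 10.

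At Tssk4 all 11 bins within 1 kb of the start were switches, with 11 in state 9 in A/J, NOD/ShiLtJ and NZO/HlLtJ, 1 in DBA/2J and 0 in the other 5. At Lbhd1 the same 3 strains had 10 of 10 switch bins in state 9, followed by 3 in CAST/EiJ, 2 in DBA/2J, 1 in 129S1/SvImJ and 0 in C57BL/6J, PWK/PhJ and WSB/EiJ. At Proca1 6 strains had 9 of 9, and C57BL/6J, CAST/EiJ and PWK/PhJ had 0. Over its switch bins Proca1 was thus all or nothing, while Lbhd1 had partial cover in 3 strains. Of all 18 bins near the 2 Proca1 starts, state 9 covered 4 in CAST/EiJ and 1 each in C57BL/6J and PWK/PhJ. Of these 18 bins, 5 to 8 per strain were in states other than 9 and 14. At Bricd5 A/J, DBA/2J and NOD/ShiLtJ had 7 of 7, CAST/EiJ had 3, NZO/HlLtJ and WSB/EiJ had 2, and the other 3 strains had 0. With at least 4 strains required in each state, Tssk4 kept 1 switch bin, Lbhd1 2, Proca1 0 and Bricd5 1.

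The other genes kept NOD/ShiLtJ in state 9 with the exception of Afp. Macf1, which encodes a large linker of actin and microtubules, had 7 of 7 bins in state 9 in A/J, NOD/ShiLtJ and NZO/HlLtJ, 4 in DBA/2J, 3 in 129S1/SvImJ and 1 in C57BL/6J. Rab25, a small GTPase of recycling endosomes in epithelia, had 7 of 7 in A/J, CAST/EiJ and NOD/ShiLtJ and 3 in DBA/2J. B4galt2, a galactosyltransferase, had 6 of 6 in 5 strains, 5 in DBA/2J and 0 in A/J, PWK/PhJ and WSB/EiJ. Chadl, which encodes a cartilage matrix protein, had 6 of 6 in 129S1/SvImJ, A/J, CAST/EiJ and NOD/ShiLtJ. With at least 4 strains in each state, Macf1 and Rab25 kept 3 switch bins and B4galt2 kept 1.

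Afp encodes alpha-fetoprotein, the serum protein of fetal liver that is silenced after birth. Its 6 switch bins, at chr5:90489801-90491000, were all in state 9 in 129S1/SvImJ and NZO/HlLtJ. WSB/EiJ had 5, DBA/2J had 2, A/J had 1, and C57BL/6J, CAST/EiJ, NOD/ShiLtJ and PWK/PhJ had 0. Afp was the only one of the 10 genes at which NOD/ShiLtJ had no switch bin in state 9. With at least 4 strains in each state, 2 of its 6 bins were kept.

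**Figure D5:**
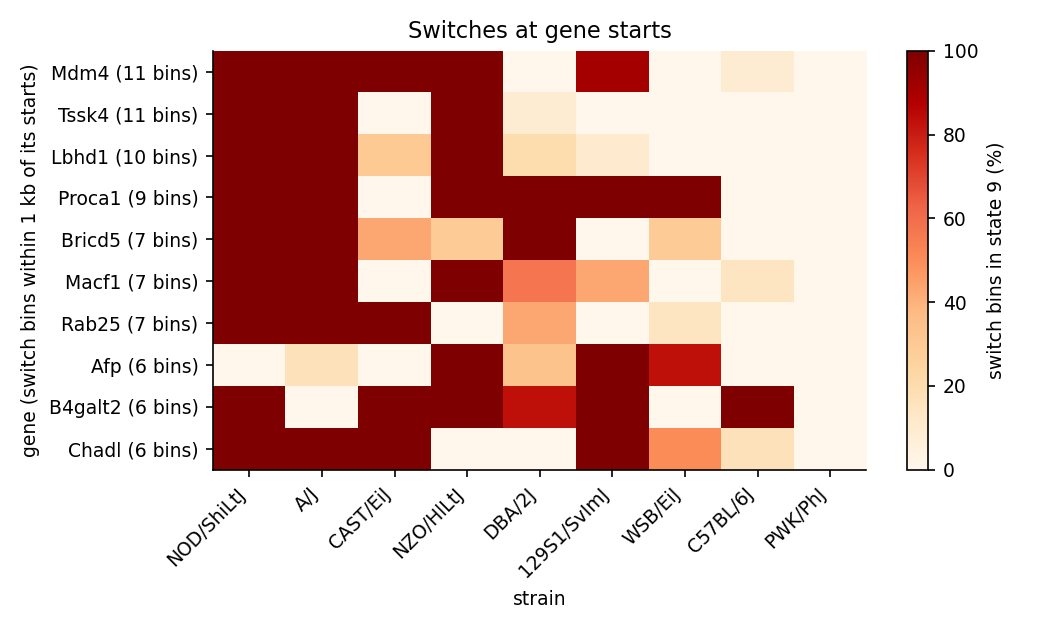
Percent of the switch bins within 1 kb of a gene's starts that were in state 9 (colour), for the 10 genes with most such bins (rows, number of bins in brackets) in each strain (columns, ordered by share of all switch bins in state 9). Afp is pale in NOD/ShiLtJ and dark in NZO/HlLtJ and 129S1/SvImJ, and PWK/PhJ is at 0 in all 10 rows.

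Most of the longest regions lay some kilobases from a start. At 3000 bp, chr9:73107001-73110000 lay before the start of Rsl24d1, its middle 4969 bp away, with A/J, CAST/EiJ and NOD/ShiLtJ in state 9. At 2400 bp, chr11:69674401-69676800 lay inside Senp3, which encodes a SUMO protease, with its middle 3177 bp before the start of Eif4a1. There 129S1/SvImJ, A/J, CAST/EiJ, DBA/2J, NOD/ShiLtJ and NZO/HlLtJ were in state 9. The same 6 strains were in state 9 at chr15:5110401-5112800, 2400 bp in Card6 and 5013 bp before the start of Rpl37, a ribosomal protein gene. The starts of Rsl24d1, Eif4a1 and Rpl37 were in state 3 in all 9 strains.

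Others of the 10 longest lay in Ect2, which encodes a guanine nucleotide exchange factor needed for cell division (3000 bp), Clta, for a clathrin light chain (2200 bp), Aurkb, a mitotic kinase (2200 bp), Zfp553 (2200 bp) and Tmem106c (2200 bp). The Ect2 region had its middle 4754 bp after the start, which was in state 3 in 6 strains and in state 9 in A/J, PWK/PhJ and WSB/EiJ. The remaining 2 were 2800 bp near Mak16 and 2200 bp in a stretch whose nearest protein-coding gene was Asap2, 192368 bp away. Of the 10, 7 had a nearest annotated start in state 3 in all 9 strains. Starts were lacking for some genes, so the nearest one could belong to another gene. For the region in Zfp553 it was that of Zfp771, and for the region in Aurkb that of Borcs6, 10675 bp away. NOD/ShiLtJ was in state 9 in 9 of the 10, the exception being the region nearest Asap2.

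By gene, Lrba had the most regions, 14 in 559.2 kb. Bbof1, Dpy30, which encodes a core subunit of the H3 lysine 4 methyltransferase complexes, and Zfp764 had 11 each in 33.0, 24.5 and 27.1 kb. Genes with a switch were longer, with a median of 23308 bp against 15404 bp for genes without. A longer gene offers more bins, and its part in these counts was not tested.

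The gene lists were small. None of 15 hepatocyte genes, 13 ubiquitous genes, 13 developmental transcription factors, 10 neuronal genes, 14 cytochrome P450 genes and 15 interferon and immune genes with a start had a switch within 1 kb of it, against 3.32% of all genes. At that share a count of 0 is common in lists of 10 to 15 genes, so it shows no lack of switches. Inside the gene, 0 of 20 hepatocyte genes, 0 of 20 cytochrome P450 genes, 0 of 20 developmental transcription factors and 0 of 19 neuronal genes held one, against 22.9% of all genes. Median gene length in these lists ran from 5.65 kb for developmental transcription factors to 123 kb for neuronal genes, and length was not adjusted for. Tbp, the TATA-binding protein gene, had 3 bins. Among immune genes, Irf7, an interferon regulatory factor, had 6 bins and Irgm1, an immunity GTPase, had 2. Of the 10 lymphocyte markers, Cd4 had 6 bins and Ptprc had 1, at chr1:138174001-138174200 beside a start.

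Zinc-finger genes with Zfp symbols, a group chosen after the data were seen, held a switch inside in 225 of 386 genes, or 58.3%, against 22.9% of all genes. Near a start they held one in 30 of 324, or 9.26%, against 3.32%. Between 12.2 and 28.9 kb of length, the middle range of these genes, 66.7% of 192 Zfp genes and 30.3% of 4691 other genes held one. Many of these genes encode KRAB zinc-finger repressors that lie in clusters, so neighbours are not independent. Of 1100 olfactory receptor genes with Olfr symbols, 0 held one, but their median length was 0.95 kb.

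The densest megabase was chr13:67000001-68000000, a zinc-finger cluster, with 115 regions in 38 patterns. Of its 27 protein-coding genes, 23 held a switch, among them 20 of the 23 genes with Zfp symbols and the non-Zfp genes Rslcan18, Gm10037 and Rsl1. Over all genes the share was 22.9%, but the window was chosen for its number of regions, so a high share follows from that choice. Its Zfp genes also count in the Zfp share given above. Zfp273, Zfp429 and Zfp729a had 11 switch bins each. State 9 covered all 11 of Zfp273 in DBA/2J and NOD/ShiLtJ, and 9 in A/J, 7 in NZO/HlLtJ, 4 in 129S1/SvImJ and 3 in CAST/EiJ. At Zfp729a it covered 11 in CAST/EiJ and NOD/ShiLtJ, 9 in A/J, 4 in NZO/HlLtJ and 0 in DBA/2J. Genes of 1 cluster thus differed in which strains had state 9.

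The next windows were chr7:127000001-128000000 with 81 regions, chr19:5000001-6000000 with 77 and chr11:69000001-70000000 with 74. The 1% of windows with most regions, 24 of 2473, held 1448 regions, or 7.55%, and 737 windows held none. Per chromosome the density ran from 5.33 regions per Mb on chromosome 1 to 12.1 on chromosome 11. It followed gene density over the 19 chromosomes (Pearson's r = 0.898, Spearman's rank correlation = 0.893), a description over chromosomes that share the same libraries.

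Of 919 autosomal miRNA hairpins, 16 overlapped a switch, or 1.74%, where switches made up 0.278% of autosomal bins and a hairpin can reach into more than 1 bin. They included Mir15b and Mir16-2, neighbours on chromosome 3, and Mir106b. At Mir16-2 the strains in state 9 were A/J, CAST/EiJ and NOD/ShiLtJ, and at Mir15b also 129S1/SvImJ, NZO/HlLtJ and PWK/PhJ. At Mir106b they were the 6 strains of the most frequent pattern. No expression data were analysed here.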

How the data were processed

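The deposited files hold 1 chromatin state segmentation per strain, in which the authors gave each interval a state number from 1 to 14, a category that is not a count or signal. Per the submitters' processing notes, the build was mm10 and the tools included FastQC 0.11.5 and MACS 1.4.2. The aligner and the segmentation tool are not given in the sources used here. Since each segmentation combines all libraries of its strain, the strain was the unit, samples were grouped by the strain in their labels, and the depth and its precision are unknown.

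Intervals were cut into bins of 200 bp on chromosomes 1 to 19. Gene positions, starts and promoter bases came from RefSeq tables of GRCm38.p6, with starts for 16457 of 20665 protein-coding genes (79.6%). The regions, gene lists and comparisons were chosen with earlier results of these data known. Shares of bins were compared within strains by exact two-sided sign-flip permutation tests over 9 strains (512 sign patterns, smallest p 0.0039), with Benjamini-Hochberg adjustment over 8 planned tests. Shares 1 to 5 kb from a start were added after the data were seen and not tested. The planned CpG test over bins was not run, since it needs genome sequence that was not used here.

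Genes were named by rule: the 10 with most switch bins within 1 kb of a start, the 10 longest regions, members of the gene lists, and the first 5 promoters. Some results for the gene lists are not reported here. Genes with most regions, zinc-finger and olfactory receptor genes, the densest windows, the miRNAs and 2 further promoters were chosen after their values were seen. Alternatives changed the minimum number of strains, region length, gene set, windows, comparison set, chromosomes and strains. Code was tested on simulated segmentations. Scripts ran on Python 3.11.15 with pandas 2.3.3, numpy 2.4.6 and scipy 1.17.1, and figures were drawn with matplotlib 3.10.9.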

Additional observations from a re-analysis of the deposited data

Results flagged for a closer look

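In 11 of 18 sets of 9 strain values, 1 strain lay far from the rest, where chance flags about 1 in 20 sets, or 0.9 of these. The sets share the same bins and are not independent. PWK/PhJ stood apart in 9 of them. Its difference between switch bins and other state 9 bins was 4.32 percentage points for bins near a start, -15.6 for bins in genes and -26.2 for bins 1 to 5 kb from a start. Its difference near starts was 17.2 points against 13/14 switches, 17.3 against 4/14 and 17.6 against 6/14. At 1 to 5 kb from a start the values were 28.2, 27.3 and 29.2 points, below those of the other 8 strains. PWK/PhJ had 633 switch bins in state 9, against 5442 or more in each of the other strains.

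NOD/ShiLtJ stood apart with a flank difference of 32.0 points and with 1.33% of autosomal bins in state 9 outside the switches. It had 1668 switch bins in state 14.

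On the sex chromosomes, which the selection leaves out, 62 bins of chromosome X and 5 of chromosome Y met the same rule, more than the 3 set as a minimum. NOD/ShiLtJ was in state 9 in 67.7% of those on X. The mice were female.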

How the results depend on the processing

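With at least 2 strains in each state there were 30816 regions and 58836 bins, with at least 4 there were 9175 and 15766, and without single-bin regions 8113 regions. The gene-start difference from other state 9 bins lost its call with a window of 500 bp (-0.907, adjusted p = 0.125 by exact permutation) and against bins in state 9 in all strains (-4.60, adjusted p = 0.0520833), and kept it at -15.7 with a window of 2 kb and at -4.42 without single-bin regions. It ranged from -4.29 to -3.00 with 1 strain left out, and lost its call without WSB/EiJ, NZO/HlLtJ, NOD/ShiLtJ, DBA/2J, CAST/EiJ, C57BL/6J, A/J or 129S1/SvImJ.

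The untested share 1 to 5 kb from a start, less that of other state 9 bins, ranged from -1.03 to 3.98 with 1 strain left out: -1.03 without NOD/ShiLtJ, -0.225 without CAST/EiJ, -0.050 without A/J and -0.014 without DBA/2J. The in-gene difference from 4/14 switches was -1.55 with all annotated genes and -1.20 on even-numbered autosomes. It ranged from -0.646 to 2.74 with 1 strain left out: -0.646 without NOD/ShiLtJ, -0.473 without C57BL/6J, -0.399 without WSB/EiJ and -0.235 without A/J. The flank difference was 31.6 in the next 1 kb, which holds the rest of the state 9 segment, and from -0.521, without NOD/ShiLtJ, to 5.37 otherwise. The cause was not tested.

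The other 5 tests kept direction and call under each alternative run. Of 50 alternative counts for the named start genes, 34 stayed within 1.5 times. Using both gene ends in place of starts, and leaving out NOD/ShiLtJ and PWK/PhJ together, were alternatives chosen after seeing the data. No paired analysis was possible because the segmentations combine the mice of a strain and carry no replicate numbers, so mice could not be paired, while the tests themselves compare sets of bins within each strain. Depth is unknown, starts were lacking for some genes and for chromosome 18, and 1 segmentation per strain gives no error within a strain.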
